A study of Arabidopsis thaliana with 12 samples.

Results

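The 45 genes described here are the nuclear genes of the photosynthetic light reactions in Arabidopsis thaliana, 45 of the 32420 loci in each of a table of 21-nt and a table of 22-nt small RNAs. They were taken by name: 14 genes of the photosystem II antenna (LHCB), 6 of the photosystem I antenna (LHCA), 12 subunits of photosystem I, 9 subunits of photosystem II and 4 electron carriers. All 45 identifiers and names matched RefSeq on the assembly TAIR10.1, with 19, 8, 7, 7 and 4 genes on chromosomes 1 to 5. Small RNA was sequenced from whole seedlings, 10 days old, of wild type Col-0 and of dcl4-2, a mutant line of DICER-LIKE 4 (DCL4). Both genotypes grew either on MS, a complete plant medium, or on MS-N, the same medium without nitrogen. Each of the 4 groups had 3 biological replicates, and the 12 libraries held between 4515437 and 7270637 reads. The values are normalized reads, that is, reads of 1 length at a gene divided by a size factor for the library. The size factors ran from 0.957 to 1.16 in Col-0 and 0.863 to 0.977 in dcl4-2 on MS, and from 1.33 to 1.53 in Col-0 and 0.722 to 0.910 in dcl4-2 on MS-N. They count small RNA that maps to a gene, not its messenger RNA. Means carry the SD over the 3 libraries, and library 1, 2 and 3 of a group are named in order of size factor, largest first. This was done at each length on its own, so library 2 at 21 nt need not be library 2 at 22 nt.

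In the light reactions, antenna proteins bind chlorophyll and pass the energy of light to the reaction centres of photosystems II and I. Photosystem II splits water, the cytochrome complex and plastocyanin carry electrons on, and photosystem I passes them to ferredoxin. The genes for the core proteins lie in the chloroplast genome, and those for the antennae and most outer subunits lie in the nucleus, where they are strongly transcribed in green tissue and are known to be turned down when nitrogen is short. DCL4 cuts long double-stranded RNA into 21-nt small RNAs, and DCL2 cuts it into 22-nt ones. Pieces of abundant messenger RNA can also fall in these lengths, and length alone does not tell them from the products of a Dicer enzyme.

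The LHCB1 genes encode the main protein of the trimeric antenna LHCII and gave the most reads of the 45 genes in Col-0 on MS at both lengths. They are related copies, which matters for every value given for them, so a matching stretch of each coding sequence is shown here from RefSeq (TAIR10.1). The 90 bases run 5′ to 3′ in the sense of the messenger RNA, from coding base 301 in the first 3, 298 in LHCB1.4 and 295 in LHCB1.5, and capitals mark bases that differ from LHCB1.3.
LHCB1.3: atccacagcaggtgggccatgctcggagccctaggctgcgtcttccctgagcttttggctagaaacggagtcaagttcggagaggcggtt
LHCB1.1: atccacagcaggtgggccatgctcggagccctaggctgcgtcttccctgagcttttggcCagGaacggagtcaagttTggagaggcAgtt
LHCB1.2: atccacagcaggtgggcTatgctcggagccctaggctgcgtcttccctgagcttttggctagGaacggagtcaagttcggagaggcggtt
LHCB1.4: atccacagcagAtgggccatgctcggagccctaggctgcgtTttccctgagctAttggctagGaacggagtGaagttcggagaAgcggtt
LHCB1.5: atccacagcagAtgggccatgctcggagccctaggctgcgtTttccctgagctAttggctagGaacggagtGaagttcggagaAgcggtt
In this stretch LHCB1.1 differed from LHCB1.3 at 4 bases, LHCB1.2 at 2, and LHCB1.4 and LHCB1.5, which are identical to each other here, at 6. Over the whole coding sequence LHCB1.3 was 96.1% identical to LHCB1.1 and 96.4% identical to LHCB1.2. Of the 21-base windows of the coding sequence, 49.5% in LHCB1.1 and 41.2% in LHCB1.2 occur in LHCB1.3, against 4.99% in LHCB1.4 and 10.8% in LHCB1.5, while 42.2% of those of LHCB1.5 occur in LHCB1.4. LHCB1.2, LHCB1.1 and LHCB1.3 lie side by side on chromosome 1 (AT1G29910; chr1:10472280-10473502, minus strand, 1 exon; AT1G29920; chr1:10474656-10475969, minus strand, 1 exon; AT1G29930; chr1:10477885-10479114, plus strand, 1 exon). LHCB1.5 and LHCB1.4 are neighbours on chromosome 2 (AT2G34420; chr2:14522524-14523568, minus strand, 1 exon; AT2G34430; chr2:14524607-14525918, plus strand, 1 exon). Of all 21-base windows of their transcripts, 41.8% in LHCB1.2, 42.1% in LHCB1.1, 44.4% in LHCB1.3, 29.2% in LHCB1.4 and 41.6% in LHCB1.5 also occur in another of the 45 genes. How reads with several matches were counted is not given in the sources used here, so the split of reads among these copies is uncertain.

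The same holds for LHCB2.1 and LHCB2.2, which share 38.9% and 47.1% of their windows with other genes of the set. Several genes also share windows with transcripts outside the set. Every window of LHCB1.5 occurs in AT2G08665, a locus that is not among those of the tables, 60.4% of PSAG windows occur in AT1G55673, 51.1% of PSAH-1 in AT3G16130, 39.8% of LHCB2.3 in AT3G27700 and 31.7% of PSAE-1 in AT4G28755. LHCA2, PSAH2 and LHCB1.4 share 18.6%, 22.6% and 25.5% with AT5G28450, AT1G52240 and AT2G08665. Whether counting used strand is not given either. For 28 of the 45 genes under 5% of the windows were shared with any other gene, and counts for these 28 are given beside the main results.

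The genotype labels were checked first. DCL4 itself gave few small RNAs, at 21 nt 2.92 ± 1.95 normalized reads for the wild type and 1.11 ± 0.0497 for the mutant on MS, against 3.16 ± 1.96 and 2.31 ± 1.81 on MS-N, and no difference between genotypes at this locus passed at either length. The 21-nt trans-acting siRNAs, products of DCL4, held 26379 rpm for the wild type and 1128 for the mutant on MS, against 45790.4 and 2675 on MS-N. The 45 genes held 0.542% of the normalized 21-nt reads summed over the 32420 loci in wild-type seedlings on MS and 0.015% on MS-N. For the mutant these shares were 0.255 and 0.013%. At 22 nt they were 1.54 and 0.039% for the wild type, and 0.807 and 0.049% for the mutant.

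Antenna genes stood at the top of the order on MS. Per kb of transcript, LHCB1.3 held 302 ± 42.2 normalized reads at 21 nt in Col-0, followed by LHCB1.5 with 259.5, LHCB1.1 with 204, LHCB1.2 with 191, PSBR with 128 and LHCB1.4 with 113. Each of these overlapped the next over the libraries, while all libraries of LHCB1.4 lay above all those of LHCA4, the next gene, at 82.2. Below LHCA4 neighbours overlapped down to LHCA5, at 3.33 per kb, which lay above LHCA6 and LHCB4.3. The order was nearly the same at 22 nt (Spearman's rho 0.989 over the 45 genes, as a description of libraries that share their samples). Per kb on MS-N, LHCB1.3 stayed first in Col-0, at 16.2 for 21 nt and 8.24 for 22 nt. In dcl4-2 on MS-N the first gene was PSBR, a photosystem II subunit, at 22.0 and 17.9, with all 3 libraries above those of the second gene at both lengths. LHCB1.3 then held 8.44 and 6.68 per kb, and its libraries overlapped those of the next gene below it.

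Nitrogen deprivation lowered the small RNA of nearly all light-reaction genes in Col-0. At 21 nt 42 of the 45 genes fell and 0 rose (limma, adjusted p under 0.05, Benjamini-Hochberg over all 19357 loci tested), where 3.8% of all loci fell. At 22 nt 42 of 44 tested genes fell and 0 rose, where 4.52% of 20134 loci fell. The median log2 change of the genes was -4.15 at 21 nt and -4.47 at 22 nt, beside 0.09 and 0.02 over all loci tested, and the log2 change was below 0 for 45 of 45 and 44 of 44. As a ratio of group means, over genes with more than 3 reads in both groups, the level was a median of 29.4-fold lower at 21 nt (32 genes, 6.74 to 93.8-fold) and 39.1-fold lower at 22 nt (29 genes, 9.79 to 161-fold). All 3 libraries of MS-N lay below all 3 of MS for 43 of 45 genes at 21 nt and 42 of 44 at 22 nt. That was the case for 11.6% and 12.6% of all loci.

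A filter kept loci with at least 1 normalized read in at least 3 of the 12 libraries. It kept all 45 genes at 21 nt and 44 at 22 nt, where LHCB4.3 had 0 reads, but 10 and 9 of them only through their MS libraries, a choice that favours genes lower on MS-N. On MS-N, 1 read reached the filter value in dcl4-2, where size factors were below 1, but not in Col-0. The filter thus admitted loci more easily through dcl4-2 on MS-N, which bears on the shares and medians of all loci. Of the 35 genes kept at each length on their MS-N libraries alone, all 35 fell in Col-0 at both lengths. The fall was also seen in genes that share little sequence, with 26 of 28 at 21 nt and 26 of 27 at 22 nt. With microRNA gene reads scaled to a common sum, the median of all loci moved to -0.29 and -0.23, and the median of the light-reaction genes minus it was then -4.49 and -4.73 on the log2 scale. In whole seedlings, fewer green cells and less RNA per cell cannot be told apart. The summed reads of 4 leaf genes (carbonic anhydrase CA1 and the small Rubisco subunits RBCS1A, RBCS2B and RBCS3B) were 50.0-fold lower at 21 nt and 62.8-fold lower at 22 nt on MS-N in Col-0, and all 4 fell at both lengths. Those of 6 root genes moved the other way, from a range of 15.5 to 31.7 normalized reads over the libraries on MS to one of 44.5 to 61.2 on MS-N at 21 nt. Of these, 2 of 5 tested rose at 21 nt (BGLU21 and BGLU22, which encode beta-glucosidases) and 1 of 6 at 22 nt (BGLU21). Of all loci, 2.06% and 1.82% rose. Among the root genes tested, the log2 change was above 0 for 5 of 5 at 21 nt and 5 of 6 at 22 nt. The part of fewer green cells or of less RNA per cell in the fall of the light-reaction genes was not tested.

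**Figure D1:**
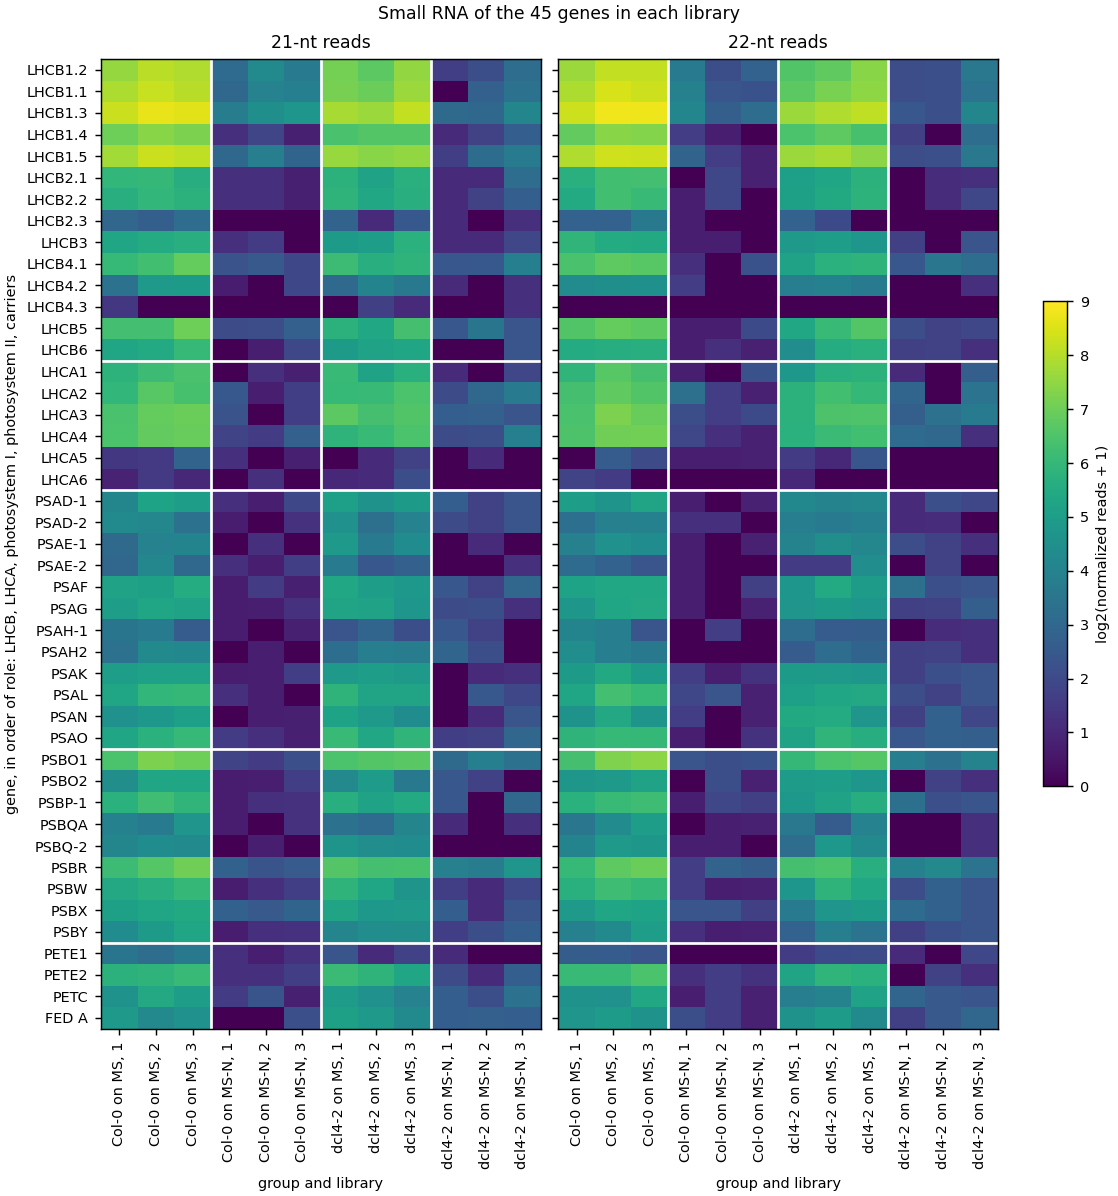
Normalized reads, as log2(value + 1) in color, of the 45 genes (rows, in order of role) in each of the 12 libraries (columns, 3 per group) at 21 nt and 22 nt. The 3 MS-N libraries of each genotype are darker than its MS libraries for nearly every gene, with 43 of 45 genes free of overlap at 21 nt in Col-0.

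Among the LHCB genes 13 of 14 fell at 21 nt and all 13 tested fell at 22 nt in Col-0, and the summed LHCB reads were 24.8-fold and 51.1-fold lower. LHCB1.3, the highest, held 312, 410.4 and 391 normalized 21-nt reads in the 3 libraries of Col-0 on MS, against 13.1, 21.5 and 25.2 on MS-N (18.6-fold lower, log2 -4.19 ± 0.26 (SE), adjusted p = 1.32e-20). At 22 nt it held 316, 445 and 441 on MS, against 16.6, 5.53 and 8.30 on MS-N (39.5-fold lower, log2 -5.28 ± 0.32 (SE), adjusted p = 3.45e-18). The groups were far apart at both lengths, and the ratio was larger at 22 nt, a difference that was not tested. The remaining LHCB1 copies fell too. LHCB1.5 (AT2G34420) went from 271 ± 50.0 to 9.05 ± 3.82 at 21 nt and from 293 ± 42.8 to 3.02 ± 2.85 at 22 nt. LHCB1.4 (AT2G34430) went from 148 ± 18.5 to 1.57 ± 1.01 at 21 nt and from 148 ± 29.7 to 0.921 ± 1.06 at 22 nt. LHCB1.4 had the largest ratio of the genes with more than 3 reads in both groups, 93.8 and 161. Its means on MS-N rest on few reads, so the size of these ratios is uncertain, and their rank was not tested. LHCB2 proteins form LHCII trimers together with LHCB1 and are phosphorylated in state transitions. LHCB2.1 (AT2G05100) went from 57.6 ± 8.78 to 1.13 ± 0.350 at 21 nt and from 68.9 ± 14.8 to 1.17 ± 1.43 at 22 nt. LHCB2.2 (AT2G05070) went from 55.4 ± 5.58 to 1.13 ± 0.350 at 21 nt and from 62.7 ± 16.2 to 1.15 ± 1.44 at 22 nt. LHCB2.3 (AT3G27690) went from 6.92 ± 1.34 to 0 at 21 nt and from 7.92 ± 3.10 to 0.230 ± 0.399 at 22 nt. LHCB3 is a lesser member of the LHCII trimers. LHCB3 (AT5G54270) went from 45.02 ± 5.99 to 1.11 ± 1.02 at 21 nt and from 49.2 ± 8.48 to 0.461 ± 0.399 at 22 nt.

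The minor antenna proteins LHCB4, LHCB5 and LHCB6 link the trimers to the photosystem II core. LHCB5 (AT4G10340) went from 94.96 ± 29.6 to 4.13 ± 1.42 at 21 nt and from 105 ± 12.1 to 1.47 ± 1.34 at 22 nt. LHCB6 (AT1G15820) went from 49.2 ± 13.99 to 1.19 ± 1.51 at 21 nt and from 47.9 ± 2.26 to 0.943 ± 0.382 at 22 nt. LHCB4.2 (AT3G08940) went from 22.1 ± 10.98 to 1.18 ± 1.51 at 21 nt and from 20.9 ± 1.39 to 0.691 ± 1.197 at 22 nt. All 3 fell at both lengths, as did LHCB4.1. LHCB4.1 (AT5G01530) went from 85.3 ± 27.0 to 3.84 ± 0.914 at 21 nt and from 97.2 ± 12.6 to 1.72 ± 1.91 at 22 nt. LHCB4.3, a rare form of LHCB4, did not pass: its largest value in any library was 2.23 normalized reads at 21 nt, and it had 0 reads at 22 nt in all 12 libraries. Within the fall of the LHCB genes, the adjusted p ran up to 0.000563 at 21 nt and 0.00289 at 22 nt, both for LHCB2.3 (limma).

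Of the LHCA genes, whose products form the antenna belt of photosystem I, LHCA1 to LHCA4 fell and LHCA5 and LHCA6 did not pass at either length. LHCA3 (AT1G61520; chr1:22699715-22701412, plus strand, 3 exons), which gave the most 21-nt reads of the 6 on MS, held 85.2, 118 and 126 normalized 21-nt reads in Col-0 on MS, against 3.93, 0 and 2.16 on MS-N (54.0-fold lower, log2 -5.45 ± 0.38 (SE), adjusted p = 1.34e-18). No library on MS-N came near those on MS. LHCA4 (AT3G47470; chr3:17493343-17495033, minus strand, 4 exons) held 89.5, 132 and 134 normalized 22-nt reads on MS, against 2.76, 1.38 and 0.754 on MS-N (72.6-fold lower, log2 -5.55 ± 0.38 (SE), adjusted p = 3.59e-16). LHCA1 (AT3G54890) went from 70.5 ± 13.9 to 0.688 ± 0.673 at 21 nt and from 80.1 ± 21.02 to 1.49 ± 2.01 at 22 nt. LHCA2 (AT3G61470) went from 81.4 ± 19.4 to 2.47 ± 1.97 at 21 nt and from 94.95 ± 14.7 to 3.94 ± 4.42 at 22 nt. LHCA1 and LHCA4 pair in the belt, as do LHCA2 and LHCA3. LHCA5 (AT1G45474) held 1.72, 1.87 and 6.20 normalized 21-nt reads on MS, against 1.31, 0 and 0.721 on MS-N. LHCA6 (AT1G19150) held 0.860, 1.87 and 1.03 on MS, against 0, 1.34 and 0 on MS-N. These 2 genes encode rare antenna proteins known for joining photosystem I to the NDH complex.

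All 12 photosystem I subunit genes fell in Col-0 at both lengths, and their summed reads were 31.5-fold and 35.6-fold lower. PSAO (AT1G08380; chr1:2640803-2641934, minus strand, 3 exons), a subunit on the side where LHCII docks and the highest of the 12 per kb on MS, held 37.9, 53.2 and 64.1 normalized 21-nt reads on MS, against 1.96, 1.34 and 0.721 on MS-N (38.5-fold lower, log2 -4.49 ± 0.41 (SE), adjusted p = 5.75e-14). Its groups did not overlap. PSAD and PSAE form the docking site for ferredoxin. PSAD-1 (AT4G02770) went from 27.9 ± 10.4 to 1.62 ± 1.14 at 21 nt and from 31.2 ± 6.60 to 0.482 ± 0.418 at 22 nt. PSAD-2 (AT1G03130) went from 15.0 ± 5.06 to 0.699 ± 0.722 at 21 nt and from 12.6 ± 3.28 to 0.921 ± 0.798 at 22 nt. PSAE-1 (AT4G28750) went from 12.7 ± 4.32 to 0.448 ± 0.776 at 21 nt and from 18.8 ± 4.29 to 0.482 ± 0.418 at 22 nt. The second PSAE gene had lower means than PSAE-1 in Col-0 on MS, within the spread of the libraries at 21 nt. PSAE-2 (AT2G20260) went from 10.3 ± 5.62 to 1.38 ± 0.748 at 21 nt and from 6.06 ± 1.86 to 0.230 ± 0.399 at 22 nt. PSAE-2 had the largest adjusted p of the genes that fell, 0.00878 and 0.0123, and its call ended at 21 nt without library 2 of either Col-0 group (adjusted p up to 0.126) and at 22 nt without Col-0 MS library 1 or 2 or Col-0 MS-N library 2 or 3 (up to 0.0854). PSAK sits beside the LHCA belt, PSAL and PSAH on the opposite side, and PSAN in the lumen. PSAK (AT1G30380) went from 33.5 ± 1.44 to 1.16 ± 0.866 at 21 nt and from 33.7 ± 7.89 to 1.42 ± 0.694 at 22 nt. PSAL (AT4G12800) had a 21-nt mean slightly above that of PSAO in Col-0 on MS, within the spread of the libraries, with 39.6, 61.6 and 63.0 normalized reads there and 1.31, 0.672 and 0 on MS-N, and went from 60.6 ± 19.3 to 2.56 ± 1.71 at 22 nt. PSAN (AT5G64040) went from 27.5 ± 5.36 to 0.464 ± 0.403 at 21 nt and from 29.5 ± 10.6 to 0.942 ± 1.05 at 22 nt. These 3 fell at both lengths. PSAH-1 (AT3G16140) went from 9.21 ± 3.61 to 0.459 ± 0.399 at 21 nt and from 11.1 ± 6.11 to 0.691 ± 1.197 at 22 nt. PSAH2 (AT1G52230) went from 15.2 ± 5.02 to 0.224 ± 0.388 at 21 nt and from 15.0 ± 4.598 to 0 at 22 nt. PSAF docks plastocyanin, and PSAG anchors the antenna belt. PSAF (AT1G31330) went from 38.5 ± 7.02 to 1.13 ± 0.768 at 21 nt and from 38.5 ± 2.16 to 0.985 ± 1.16 at 22 nt. PSAG (AT1G55670) went from 35.1 ± 4.099 to 0.923 ± 0.450 at 21 nt and from 35.3 ± 8.02 to 0.482 ± 0.418 at 22 nt.

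All 9 photosystem II subunit genes fell, and their summed reads were 24.5-fold lower at 21 nt and 26.9-fold lower at 22 nt. PSBO1 (AT5G66570; chr5:26568572-26570461, plus strand, 3 exons), which encodes the main form of the protein that stabilizes the manganese cluster of water splitting, gave the most reads of the 9 on MS. It held 86.0, 148 and 127 normalized 21-nt reads in Col-0 on MS, against 2.62, 2.02 and 3.61 on MS-N (43.9-fold lower, log2 -5.005 ± 0.32 (SE), adjusted p = 3.90e-20). The 2 groups were well apart. PSBO2 (AT3G50820) went from 32.7 ± 10.4 to 1.16 ± 0.866 at 21 nt and from 29.8 ± 5.01 to 1.404 ± 1.82 at 22 nt. PSBO2 encodes the second form of PSBO. PSBP and PSBQ are the other proteins of the oxygen-evolving complex. PSBP-1 (AT1G06680) went from 61.6 ± 10.7 to 1.15 ± 0.429 at 21 nt and from 63.3 ± 9.86 to 1.91 ± 1.08 at 22 nt. PSBQA (AT4G21280) went from 17.2 ± 6.71 to 0.699 ± 0.722 at 21 nt and from 20.8 ± 11.003 to 0.482 ± 0.419 at 22 nt. PSBQ-2 (AT4G05180) went from 18.2 ± 1.66 to 0.224 ± 0.388 at 21 nt and from 23.1 ± 6.40 to 0.461 ± 0.399 at 22 nt. PSBX and PSBY are small membrane subunits. PSBX (AT2G06520) went from 38.4 ± 4.92 to 5.70 ± 0.909 at 21 nt and from 34.5 ± 5.62 to 3.52 ± 1.09 at 22 nt. PSBY (AT1G67740) went from 29.0 ± 9.22 to 1.15 ± 0.429 at 21 nt and from 21.2 ± 9.02 to 0.942 ± 0.382 at 22 nt. PSBR and PSBW help to assemble and hold the complex. PSBR (AT1G79040) went from 100.2 ± 30.4 to 4.99 ± 0.932 at 21 nt and from 99.2 ± 31.6 to 4.53 ± 2.18 at 22 nt. PSBW (AT2G30570) went from 51.9 ± 10.5 to 1.39 ± 0.755 at 21 nt and from 62.3 ± 11.2 to 1.17 ± 0.780 at 22 nt. PSBX had the smallest ratio of all the genes with more than 3 reads in both groups, 6.74 and 9.79.

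The 4 carrier genes fell at both lengths as well, and their summed reads were 20.1-fold and 27.1-fold lower. PETE2 (AT1G20340; chr1:7042046-7043392, minus strand, 1 exon), the main plastocyanin gene and the one with the most reads of the 4 on MS, held 54.2, 56.9 and 67.2 normalized 21-nt reads on MS, against 1.31, 1.34 and 2.16 on MS-N (37.0-fold lower, log2 -4.54 ± 0.40 (SE), adjusted p = 2.21e-14). At 22 nt it held 67.6, 66.2 and 86.8 on MS, against 1.38, 2.07 and 1.51 on MS-N (44.4-fold lower, log2 -4.81 ± 0.41 (SE), adjusted p = 3.40e-13). Both lengths showed the same separation. PETE1 (AT1G76100) went from 10.0 ± 1.51 to 1.14 ± 0.412 at 21 nt and from 4.85 ± 0.583 to 0 at 22 nt. PETE1 is the second plastocyanin gene and had 0 reads in Col-0 on MS-N at 22 nt, which made its level on MS at least 6.81-fold higher when 0 is set to the floor, 3 reads for the whole group. PETC is the Rieske protein of the cytochrome complex, and FED A the main leaf ferredoxin. PETC (AT4G03280) went from 32.1 ± 9.42 to 2.24 ± 1.67 at 21 nt and from 29.0 ± 10.2 to 1.17 ± 0.781 at 22 nt. FED A (AT1G60950) went from 22.7 ± 4.91 to 1.202 ± 2.08 at 21 nt and from 26.0 ± 3.99 to 2.09 ± 1.35 at 22 nt.

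In dcl4-2 nitrogen deprivation lowered 39 of 45 genes at 21 nt and 38 of 44 at 22 nt, and 0 rose, where 4.63% and 5.75% of all loci fell. The log2 change was again below 0 for every gene tested, with a median of -3.22 and -2.95, beside 0.28 and 0.32 over all loci. Of the 35 genes kept on MS-N libraries alone, 34 and 33 fell. Among the genes that share little sequence, 25 of 28 fell at 21 nt and 24 of 27 at 22 nt. Genes with more than 3 reads in both groups were a median of 10.8-fold lower at 21 nt (32 genes) and 8.68-fold lower at 22 nt (30 genes). LHCB1.3 held 198, 239.7 and 281 normalized 22-nt reads in dcl4-2 on MS, against 4.46, 3.57 and 16.6 on MS-N (29.1-fold lower, log2 -4.97 ± 0.32 (SE), adjusted p = 4.35e-17). PETE2 held 36.9, 57.6 and 52.5 on MS, against 0, 2.38 and 1.39 on MS-N (39.0-fold lower, 95% counting interval 13.4 to 197, log2 -4.62 ± 0.41 (SE), adjusted p = 2.52e-12). Both genes were thus clear of overlap in the mutant too. The 12 LHCB genes that fell in dcl4-2 ranged from 7.81 to 30.9-fold lower at 21 nt where both groups had more than 3 reads. The photosystem II genes ranged from 4.96 to 19.8-fold.

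The genes that did not pass in dcl4-2 were LHCB2.3, LHCA5, LHCA6 and PETE1 at both lengths, LHCB4.3 and PSAH-1 at 21 nt, and PSAH2 and PSBY at 22 nt. PSBY held 6.14, 13.4 and 9.64 normalized 22-nt reads on MS, against 2.23, 3.57 and 4.16 on MS-N in dcl4-2, lower in 3 of 3 libraries (2.93-fold lower, log2 -1.28 ± 0.48 (SE), adjusted p = 0.0580). PSAH-1 held 4.24, 6.69 and 3.48 on MS, against 4.39, 2.31 and 0 on MS-N at 21 nt, and its groups overlapped. Calls that could end when 1 library was left out were those of PSAD-2 and PSAH2 at 21 nt and of PSAE-2, PSAH-1 and PETC at 22 nt. PSAD-2 did not pass without dcl4-2 MS library 1 (adjusted p = 0.0578), and PSAH2 not without dcl4-2 MS library 2 or library 3 on MS-N (up to 0.199). PSAH-1 did not pass without library 1 of either dcl4-2 group (up to 0.0771), and PETC not without dcl4-2 MS library 3 (0.0585). PSAE-2 did not pass without any 1 of 5 libraries, namely 1 and 2 of Col-0 on MS, 3 of dcl4-2 on MS, and 1 and 3 of dcl4-2 on MS-N (up to 0.364).

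**Figure D2:**
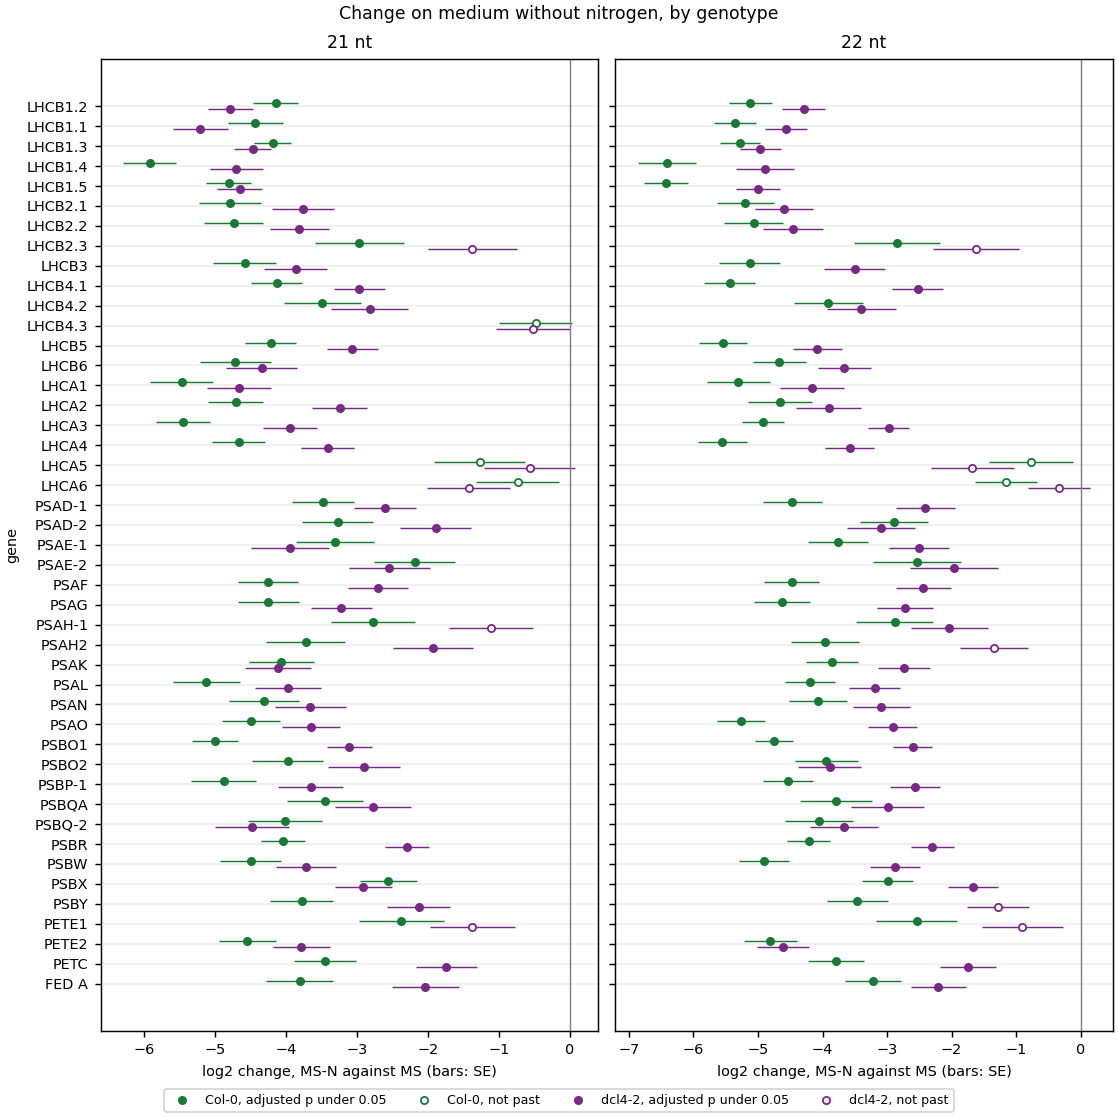
log2 change on MS-N against MS with its SE for each of the 45 genes in Col-0 (green) and dcl4-2 (purple), at 21 nt and 22 nt, with filled points for adjusted p under 0.05. All points lie below 0, and the medians are -4.15 and -4.47 in Col-0 and -3.22 and -2.95 in dcl4-2.

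On MS no light-reaction gene passed the test between the genotypes. At both lengths 0 of the 45 or 44 genes passed (limma), where 0.449% of loci were higher and 0.718% lower in dcl4-2 at 21 nt, and 0.849% and 0.581% at 22 nt. At an unadjusted p under 0.05, 0 genes were higher and 4 lower at 21 nt, where 3.19% and 6.5% of all loci were. At 22 nt 0 were higher and 9 lower, where 4.47% and 5.73% of all loci were. The median log2 change was -0.34 at 21 nt and -0.62 at 22 nt, beside -0.08 and -0.01 for all loci, and dcl4-2 held a median of 0.775 and 0.639 of the Col-0 level. All dcl4-2 libraries lay below all Col-0 libraries for 9 genes at 21 nt and 18 at 22 nt, where 6.9% and 6.1% of all loci did. LHCB1.3 held 316, 445 and 441 normalized 22-nt reads in Col-0 and 198, 239.7 and 281 in dcl4-2 (1.67-fold lower, log2 -0.74 ± 0.32 (SE), adjusted p = 0.379), without overlap. With the sums of microRNA gene reads made equal, 19 genes at 21 nt and 12 at 22 nt were lower in dcl4-2. That scaling moved the median of all loci to -0.56 and -0.39, and the median of the light-reaction genes minus it was -0.57 and -0.73. The count on MS therefore depended on the scaling. The microRNA scaling used 1 factor per group, so it adds no spread between libraries to the test. It also sets microRNA sums equal, while the 21-nt microRNA class held 85653 rpm in Col-0 and 111687 rpm in dcl4-2 on MS.

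On MS-N some light-reaction genes held more small RNA in dcl4-2 than in Col-0. At 21 nt 6 genes were higher (LHCA2, LHCA3, PSAF, PSBO1, PSBR and FED A) and 3 lower (LHCB1.1, LHCB1.2 and LHCB1.3), where 2.27% of loci were higher and 2.24% lower. At 22 nt 9 genes were higher (LHCB4.1, LHCA3, PSAF, PSAG, PSAO, PSBO1, PSBR, PSBW and PETC) and 0 lower, where 4.11% were higher and 2.15% lower. At an unadjusted p under 0.05 13 genes were higher and 3 lower at 21 nt, where 11.4% and 8.11% of all loci were. At 22 nt 20 were higher and 0 lower, where 15.1% and 6.58% were. Called or not, 8 of 45 genes at 21 nt had all dcl4-2 libraries above all Col-0 libraries, and 0 had them below. That was the case for 14.3% and 9.46% of all loci. At 22 nt 18 of 44 genes lay above and 1 below, where 17.9% and 7.87% of all loci did. The median log2 change was 0.60 and 0.80, beside 0.14 and 0.32 over all loci tested. With microRNA scaling the median of the genes was 0.01 and 0.28, that of all loci -0.27 and -0.06, and the calls turned to 0 higher and 5 lower at 21 nt and 3 higher and 1 lower at 22 nt. Of the 28 genes that share little sequence, 5 were higher at 21 nt and 8 at 22 nt. Of the 18 calls, 4 remained when any 1 of the 12 libraries was left out: PSBO1 at both lengths, PSBR at 21 nt and PSAO at 22 nt. The 21-nt count was 3 without Col-0 MS-N library 2, and 5 without Col-0 MS library 3, Col-0 MS-N library 3 or dcl4-2 MS-N library 1. The 22-nt count was 4 without Col-0 MS-N library 2. Without a mean-variance trend in the fit, 0 genes passed at 21 nt and 1 at 22 nt.

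Among the photosystem II genes, PSBO1 held 2.62, 2.02 and 3.61 normalized 21-nt reads in Col-0 on MS-N and 7.69, 13.9 and 9.63 in dcl4-2 (3.79-fold higher, log2 1.59 ± 0.32 (SE), adjusted p = 0.000704). At 22 nt it held 4.15, 3.46 and 3.77 in Col-0 and 13.4, 9.52 and 15.2 in dcl4-2 (3.35-fold higher, log2 1.496 ± 0.30 (SE), adjusted p = 0.000793). All dcl4-2 libraries were above all Col-0 libraries at both lengths. PSBR (AT1G79040; chr1:29735952-29737009, plus strand, 4 exons), a subunit needed for stable assembly of the water-splitting proteins, held 5.89, 4.03 and 5.05 normalized 21-nt reads in Col-0 on MS-N and 14.3, 12.7 and 24.8 in dcl4-2 (3.46-fold higher, log2 1.56 ± 0.31 (SE), adjusted p = 0.000539). At 22 nt the values were 2.07, 6.22 and 5.28 in Col-0 and 14.5, 17.8 and 9.70 in dcl4-2 (3.10-fold higher, log2 1.496 ± 0.33 (SE), adjusted p = 0.00236). PSBR was again free of overlap, and its 22-nt call ended without Col-0 MS-N library 1 (adjusted p = 0.0563, over all alternatives 0.000547 to 0.0997). PSBW (AT2G30570; chr2:13019028-13020311, minus strand, 2 exons), which holds photosystem II and its antenna together, held 2.07, 0.691 and 0.754 normalized 22-nt reads in Col-0 on MS-N and 3.35, 5.95 and 4.16 in dcl4-2 (3.82-fold higher, log2 1.36 ± 0.39 (SE), adjusted p = 0.0233). Its call ended without Col-0 MS-N library 2 or 3 or dcl4-2 MS-N library 2 (up to 0.110).

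Of the photosystem I genes, PSAF (AT1G31330; chr1:11214676-11216141, minus strand, 2 exons), the docking subunit for plastocyanin, held 0.691, 0 and 2.26 normalized 22-nt reads in Col-0 on MS-N and 8.92, 3.57 and 4.16 in dcl4-2 (5.64-fold higher, log2 1.80 ± 0.42 (SE), adjusted p = 0.00491). At 21 nt the values were 0.655, 2.02 and 0.721 in Col-0 and 4.39, 2.31 and 6.88 in dcl4-2 (4.004-fold higher, log2 1.34 ± 0.42 (SE), adjusted p = 0.0492). PSAF was higher in 3 of 3 libraries at both lengths, but its 21-nt call ended without any 1 of 8 libraries, namely all 6 of Col-0 on either medium save library 2 on MS-N, dcl4-2 MS library 1, and dcl4-2 MS-N libraries 1 and 3 (up to 0.206). Its 22-nt call ended without library 2 of Col-0 or dcl4-2 MS-N library 1 (up to 0.0758). PSAO held 0.691, 0 and 1.51 normalized 22-nt reads in Col-0 and 4.46, 5.95 and 5.54 in dcl4-2, both deprived of nitrogen (7.25-fold higher, 95% counting interval 2.04 to 40.7, log2 1.96 ± 0.38 (SE), adjusted p = 0.000448). PSAG (AT1G55670; chr1:20802670-20803449, minus strand, 1 exon), which anchors the LHCA belt, held 0.691, 0 and 0.754 normalized 22-nt reads in Col-0 on MS-N and 2.23, 2.38 and 5.54 in dcl4-2 (7.03-fold higher, 95% counting interval 1.37 to 66.4, log2 1.53 ± 0.43 (SE), adjusted p = 0.0230). Neither gene overlapped between the genotypes, and the call of PSAG ended without library 2 of Col-0 or dcl4-2 MS-N library 3 (up to 0.126).

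In the antennae, LHCB4.1 (AT5G01530; chr5:208866-210548, plus strand, 2 exons) held 1.38, 0 and 3.77 normalized 22-nt reads in Col-0 on MS-N and 4.46, 10.7 and 8.31 in dcl4-2 (4.56-fold higher, log2 1.904 ± 0.39 (SE), adjusted p = 0.00112). Its dcl4-2 libraries lay above the Col-0 ones, and the call ended without Col-0 MS-N library 2 (adjusted p = 0.05001). LHCA3 held 3.45, 2.07 and 3.02 in Col-0 and 5.58, 9.52 and 12.5 in dcl4-2 at 22 nt (3.23-fold higher, log2 1.36 ± 0.32 (SE), adjusted p = 0.00545). At 21 nt it held 3.93, 0 and 2.16 in Col-0 and 5.49, 5.79 and 4.13 in dcl4-2 (2.53-fold higher, log2 1.29 ± 0.38 (SE), adjusted p = 0.0357). LHCA3 was thus above Col-0 in 3 of 3 libraries at both lengths. The 22-nt call ended without Col-0 MS-N library 2 (0.0518), and the 21-nt call without Col-0 MS library 2 or 3, Col-0 MS-N library 2, or dcl4-2 MS-N library 1 or 2 (up to 0.416). LHCA2 (AT3G61470; chr3:22745514-22747444, plus strand, 4 exons) held 4.58, 0.672 and 2.16 normalized 21-nt reads in Col-0 on MS-N and 3.30, 6.94 and 12.4 in dcl4-2 (3.05-fold higher, log2 1.32 ± 0.38 (SE), adjusted p = 0.0326). The 2 groups of LHCA2 overlapped, and its call ended without library 2 or 3 of Col-0 on either medium or dcl4-2 MS-N library 2 or 3 (up to 0.279). Of the carriers, PETC (AT4G03280; chr4:1440146-1441863, plus strand, 4 exons), the Rieske iron-sulfur protein of the cytochrome complex, held 0.691, 2.07 and 0.754 normalized 22-nt reads in Col-0 on MS-N and 6.69, 4.76 and 4.16 in dcl4-2 (4.44-fold higher, log2 1.55 ± 0.44 (SE), adjusted p = 0.0228). FED A (AT1G60950; chr1:22444307-22445291, plus strand, 1 exon), the main leaf ferredoxin, held 0, 0 and 3.61 normalized 21-nt reads in Col-0 on MS-N and 5.49, 5.79 and 5.501 in dcl4-2 (4.65-fold higher, log2 1.99 ± 0.47 (SE), adjusted p = 0.00507). Both were higher in 3 of 3 libraries. PETC did not pass without library 1 or 3 of Col-0 or dcl4-2 MS-N library 1 (up to 0.0995), nor FED A without Col-0 MS-N library 1 or 2 (up to 0.0787).

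The LHCB1 genes on chromosome 1 moved the other way at 21 nt. LHCB1.3 held 13.1, 21.5 and 25.2 normalized 21-nt reads in Col-0 on MS-N and 7.69, 6.94 and 16.5 in dcl4-2 (1.92-fold lower, log2 -0.93 ± 0.26 (SE), adjusted p = 0.0274). LHCB1.2 held 7.86, 18.1 and 12.3 in Col-0 and 2.197, 3.47 and 8.25 in dcl4-2 (2.75-fold lower, log2 -1.36 ± 0.32 (SE), adjusted p = 0.00403). LHCB1.1 held 7.20, 14.8 and 13.7 in Col-0 and 0, 5.79 and 9.63 in dcl4-2 (2.32-fold lower, log2 -1.57 ± 0.39 (SE), adjusted p = 0.00883). The genotypes overlapped for all 3 genes, since library 3 of dcl4-2 lay within the Col-0 range. These copies share sequence windows, so their 3 calls may not be independent. Without dcl4-2 MS-N library 1 none of the 3 passed, and without Col-0 MS-N library 2 none did (adjusted p up to 0.318 for LHCB1.1, 0.0842 for LHCB1.2 and 0.182 for LHCB1.3). LHCB1.1 and LHCB1.3 also did not pass without Col-0 MS-N library 3, nor LHCB1.3 without Col-0 MS library 3 or dcl4-2 MS-N library 2. At 22 nt LHCB1.3 on MS-N held 16.6, 5.53 and 8.30 in Col-0 and 4.46, 3.57 and 16.6 in the mutant (log2 -0.43 ± 0.32 (SE), adjusted p = 0.451), and none of the 3 passed.

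**Figure D3:**
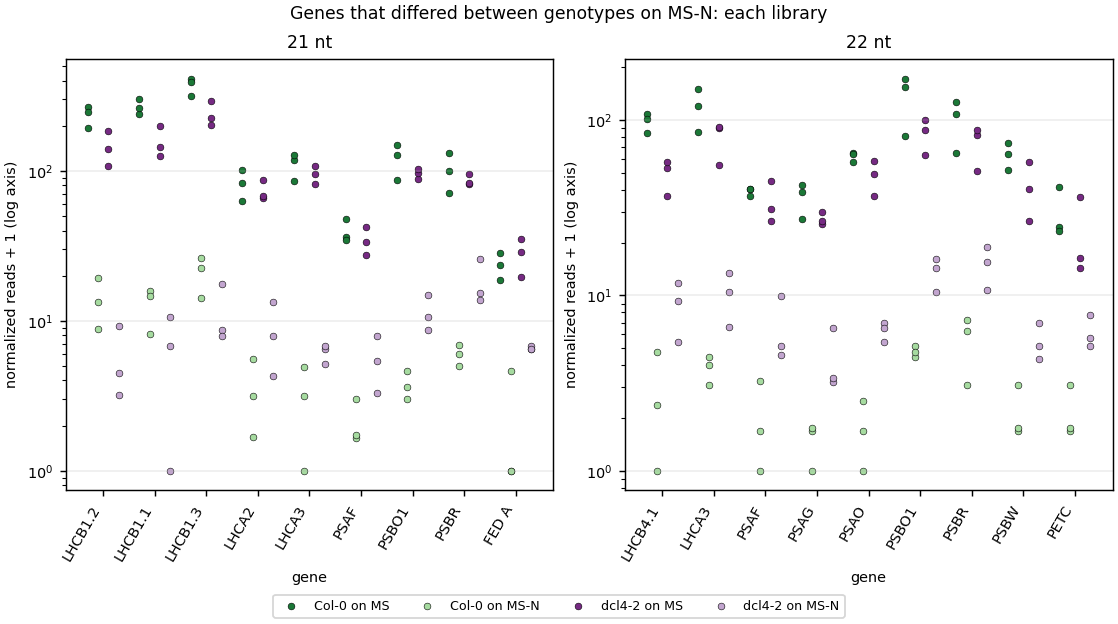
Normalized reads plus 1 (log axis) in each library for the genes that differed between genotypes on MS-N, 9 at 21 nt and 9 at 22 nt, with 3 points per group. At 22 nt the dcl4-2 points on MS-N lie above the Col-0 points for all 9 genes, and at 21 nt the LHCB1 genes show the opposite order with overlap. The genes were chosen by the test on these same values, and 17.9% of all loci at 22 nt had such a separation upward.

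Whether the change on MS-N itself differed between the genotypes was tested as an interaction, which is above 0 where the fall was smaller in dcl4-2. At 21 nt 2 of 45 genes passed, PSBO1 and PSBR, and at 22 nt 9 of 44, all above 0, where 0.553% and 1.8% of loci passed above 0. At an unadjusted p under 0.05 13 genes were above 0 at 21 nt and 19 at 22 nt, where 9.9% and 11.9% of all loci were, and 0 were below at either length, where 4.7% and 4.74% were. With a pseudocount of 0.1 or 5, without the filter, or with trimmed-mean scaling, 0 genes passed at 21 nt, and without a mean-variance trend 0 passed at either length. The median over the genes was 0.93 and 1.19, beside 0.23 and 0.34 over all loci tested, and 1.26 and 1.29 with microRNA scaling, where all loci had 0.21 at both lengths. Among the genes that share little sequence, 2 of 28 passed at 21 nt and 8 of 27 at 22 nt. By role, the 22-nt calls were 4 photosystem II genes (PSBO1, PSBP-1, PSBR and PSBW), 2 photosystem I genes (PSAH2 and PSAO), 2 LHCA genes (LHCA3 and LHCA4) and LHCB4.1. The largest was LHCB4.1 (difference in log2 change 2.92 ± 0.56 SE, adjusted p = 0.00148), whose 22-nt reads on MS were 83.4, 108 and 100.4 in Col-0 and 35.8, 52.5 and 56.8 in dcl4-2. PSAH2 (AT1G52230; chr1:19454798-19455668, plus strand, 3 exons), a subunit at the LHCII docking side, held 20.2, 13.2 and 11.5 normalized 22-nt reads in Col-0 on MS and had 0 in all 3 libraries on MS-N. In dcl4-2 it held 5.12, 8.23 and 6.43 on MS, against 2.23, 2.38 and 1.39 on MS-N. The mutant values on MS-N stand for few reads per library. The interaction of PSAH2 was 2.62 ± 0.75 (SE, adjusted p = 0.0476, limma), and the call ended without any 1 of 11 libraries (up to 0.123).

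PSBO1 passed at both lengths, with 1.899 ± 0.46 at 21 nt (SE, adjusted p = 0.0400, limma) and 2.15 ± 0.43 at 22 nt (adjusted p = 0.00261). Its 22-nt reads were 79.9, 153 and 171 on MS in Col-0 and 62.5, 86.4 and 98.6 in dcl4-2. PSBP-1 (AT1G06680; chr1:2047634-2049439, plus strand, 4 exons), a protein of the oxygen-evolving complex, held 52.7, 65.2 and 72.1 normalized 22-nt reads on MS, against 0.691, 2.77 and 2.26 on MS-N in Col-0. In dcl4-2 it held 26.6, 35.0 and 48.2 on MS, against 8.92, 3.57 and 4.16 on MS-N. LHCA4 held 53.2, 68.9 and 76.1 on MS, against 7.81, 7.14 and 1.39 on MS-N in dcl4-2. Both genes were lower on MS-N in each genotype, by less in dcl4-2. Of the 11 calls at the 2 lengths, 3 remained when any 1 of the 12 libraries was left out: LHCB4.1, PSAO and PSBO1 at 22 nt. The 21-nt count was 0 without Col-0 MS library 2 or 3, Col-0 MS-N library 1 or 2, or dcl4-2 MS library 1. It was 1 without Col-0 MS-N library 3, dcl4-2 MS library 2, or dcl4-2 MS-N library 2 or 3. The 22-nt count was 3 without Col-0 MS library 2 or 3, and 5 without Col-0 MS library 1, Col-0 MS-N library 2 or dcl4-2 MS library 1.

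Other genes of the same process were taken as lists. Of 19 further nuclear light-reaction genes, 9 fell and 1 rose at 21 nt in Col-0 on MS-N, where 3.8% of all loci fell and 2.06% rose. At 22 nt, where 4.52% of all loci fell, 9 of 18 tested genes did. One that fell at both lengths was ATPC1, a subunit of the chloroplast ATP synthase (log2 -3.95, adjusted p = 5.52e-11 at 21 nt, log2 -4.29, adjusted p = 1.95e-12 at 22 nt). Of 8 genes of chlorophyll synthesis and its regulation, 2 fell at each length, GUN5, a subunit of magnesium chelatase (log2 -4.26, adjusted p = 5.95e-14 at 21 nt), and PORB, a protochlorophyllide oxidoreductase (log2 -3.32, adjusted p = 3.38e-07). Among 31 chloroplast-encoded light-reaction genes with library values, 28 fell at 21 nt and 30 at 22 nt in Col-0, and their summed reads were 5.25-fold and 7.91-fold lower, beside 26.2-fold and 40.6-fold for the 45 nuclear genes. In dcl4-2 the sums were 4.50-fold and 2.42-fold lower for the chloroplast genes and 13.1-fold and 12.5-fold lower for the nuclear ones. For the chloroplast genes, 28 fell and 0 rose at 21 nt, and at 22 nt 20 fell and 1 rose in the mutant. Of all loci, 4.63% fell and 8.45% rose there at 21 nt, and 5.75% and 9.81% at 22 nt.

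On MS-N the chloroplast-encoded genes split by length between the genotypes. At 22 nt 26 of 31 were higher in dcl4-2 and 0 lower (for example ATCG00580, log2 2.39, adjusted p = 4.63e-11), and at 21 nt 2 were higher and 7 lower. Of all loci, 4.11% were higher and 2.15% lower at 22 nt, and 2.27% and 2.24% at 21 nt. The median log2 change of the chloroplast-encoded genes was 1.39 at 22 nt and -0.18 at 21 nt, beside 0.32 and 0.14 over all loci. The interaction passed above 0 for 21 of the 31 at 22 nt and for 1 at 21 nt, where 1.8% and 0.553% of all loci did. Whether passed or not, its estimate was above 0 for 30 at 22 nt and 17 at 21 nt. Of the 14 small RNA classes at 22 nt, 9 had all dcl4-2 libraries above and 3 below all those of Col-0 on MS-N. In rpm, 22-nt tRNA reads on MS-N were 2732 ± 356 for the wild type and 4453 ± 229 for the mutant, and 22-nt rRNA reads 1454 ± 55.8 and 2417 ± 122. Reads of exons were 9898 ± 219 and 26356 ± 878, while those of transposable elements were 28746 ± 2226 and 17543 ± 576. At 21 nt tRNA reads were 2000.5 in Col-0 and 3811 in dcl4-2. The 4 leaf genes also moved. Their summed 22-nt reads were 384 to 542 in Col-0 on MS, 4.84 to 11.7 after nitrogen was withheld. In the mutant they were 209 to 429 and 17.8 to 47.1. Of these 4, the 3 Rubisco genes were higher at 22 nt in the mutant on MS-N, where CA1 had 0 reads. At 21 nt 0 of the 4 leaf genes passed. The summed 22-nt reads of the 6 root genes were 19.3 to 31.6, 38.7 to 52.1, 17.1 to 44.2 and 92.8 to 127 in the same order, with PIP2;4 at 0 in Col-0 on MS and AGP30 at 0 in Col-0 on MS-N. Of these 6, PBP1 was higher in dcl4-2 on MS-N (log2 1.22, adjusted p = 0.0147). The part of these shifts in the values of the light-reaction genes was not tested.

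**Figure D4:**
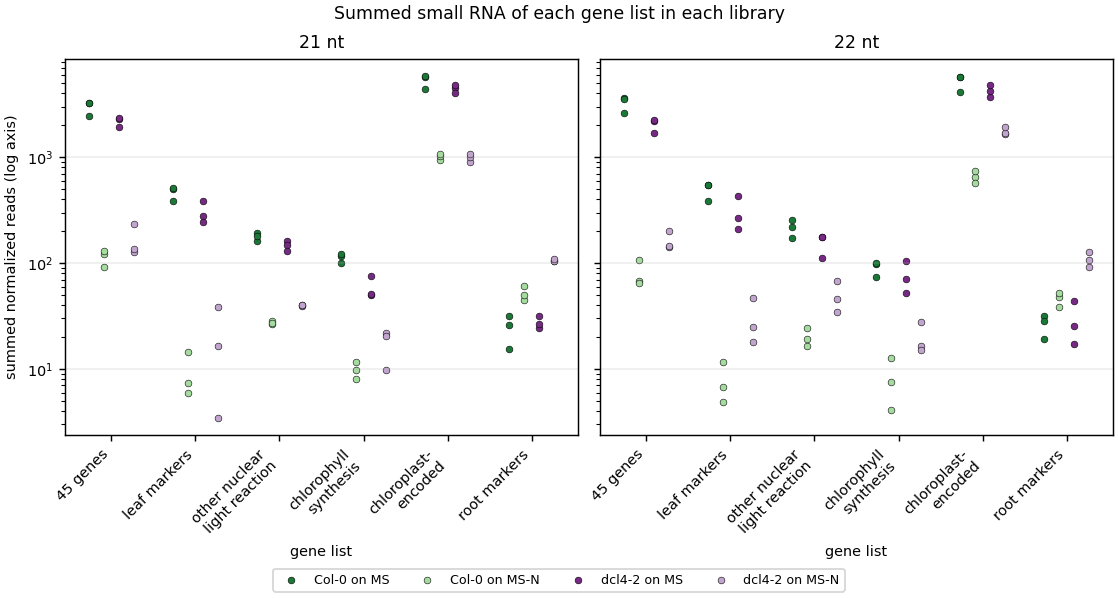
Summed normalized reads (log axis) of 6 gene lists in each library at 21 nt and 22 nt, with 3 points per group. At 22 nt the 45 genes held 2598 to 3629 on MS and 64.9 to 108 on MS-N in Col-0, and 1675 to 2239.6 and 142 to 202 in dcl4-2. The leaf genes lay lower and the root genes higher on MS-N.

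The 2 lengths were close to equal in amount at these genes. Of all 21- and 22-nt reads of the 45 genes, 50.9% were 22 nt in Col-0 on MS (exact Clopper-Pearson 95% interval 50.2 to 51.6, counting error only), and 49.8% in dcl4-2 on MS (48.9 to 50.7). On MS-N the share was 40.4% in Col-0 (37.1 to 43.8) and 49.4% in dcl4-2 (45.9 to 53.0). Over all loci with library values the shares were 54.2% on MS and 53.5% on MS-N for the wild type, and 59.7 and 56.1% for the mutant. The loci without library values, 62 at 21 nt and 26 at 22 nt, hold 80.3 to 91.5% of the deposited 21-nt sums but 33.4 to 54.2% of the 22-nt sums, which raises these shares. Over every locus of the tables, from deposited means, 22-nt reads made up 27.6% on MS and 21.4% on MS-N for the wild type, and 22.8 and 20.5% for the mutant. Single genes with at least 100 reads stayed near the middle on MS. In Col-0 their median was 51.5% over 35 genes, from 41.3% (33.5 to 49.5) in PSBY to 54.7%, and the interval of 1 gene did not include 50. In dcl4-2 the median was 48.6% over 33 genes, from 38.4% (29.8 to 47.5) in PSAD-1 to 60.6% (51.9 to 68.8) in PSBO2, and the intervals of 4 did not include 50. By role, the share in Col-0 on MS-N was 33.9% (29.6 to 38.5) in the LHCB genes, and LHCB1.3, the one gene with 100 reads there, had 33.1% (25.1 to 41.9). It was 51.1% (40.2 to 61.9) in the LHCA genes, 47.7% (37.0 to 58.6) in photosystem I, 47.8% (39.9 to 55.8) in photosystem II and 43.8% (29.5 to 58.8) in the carriers. The roles were not tested against each other, several of their intervals overlap, and pooled reads of copies that share sequence are not independent. The 3 libraries of the LHCB genes in this group held 58.0, 24.2 and 27.2 normalized 22-nt reads, more in library 1 than in the other two together. These shares are of recovered reads summed over a group, since the tables of the 2 lengths were normalized separately. From the deposited means the share of the 45 genes was 52.0% on MS and 41.1% on MS-N for the wild type, and 48.2 and 49.5% for the mutant.

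**Figure D5:**
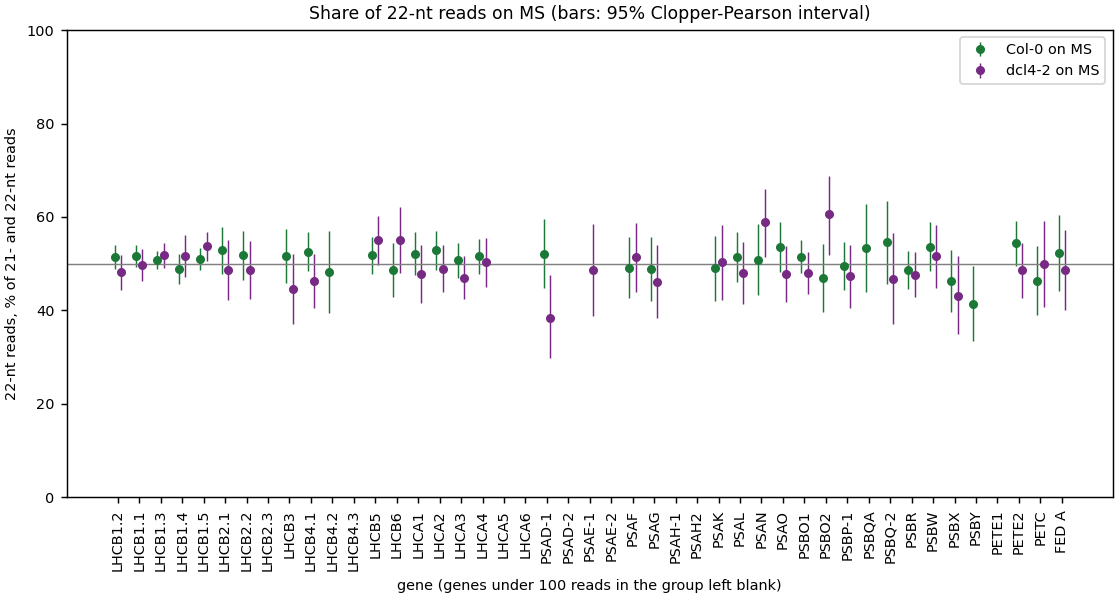
Share of 22-nt reads among 21- and 22-nt reads of each gene with at least 100 reads, in Col-0 on MS (35 genes) and dcl4-2 on MS (33 genes), with exact 95% intervals and a line at 50%. The points lie between 38.4% and 60.6%, and most intervals include 50%.

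The 250 bases before each start site were searched on both strands for 2 short motifs that are known from light-regulated plant promoters. The G-box, CACGTG, occurred before 8 of the 45 genes (17.8%), beside 6.49% of 27444 promoters. These were LHCB2.3, LHCB4.1, LHCB6, LHCA4, PSAE-2, PSAH2, PSBQA and PSBQ-2. The I-box, GATAAG, occurred before 11 genes (24.4%), beside 12.3% of all promoters. LHCB6, PSAH2 and PSBQ-2 hold both. The promoter of PSAH2 is shown as an example from RefSeq (TAIR10.1, chr1:19454548-19454797, plus strand, 5′ to 3′), with the motifs in capitals on whichever strand they lie.
PSAH2: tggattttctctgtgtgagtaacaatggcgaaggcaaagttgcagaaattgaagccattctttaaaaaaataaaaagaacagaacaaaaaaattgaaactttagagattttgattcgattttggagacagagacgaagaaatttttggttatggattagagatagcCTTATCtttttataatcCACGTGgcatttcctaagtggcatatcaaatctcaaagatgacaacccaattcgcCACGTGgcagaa
The match of letters is a description, and the data hold no measurement of binding.

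In the authors' deposited table of comparisons, 42 of the 42 genes with an adjusted p were lower on MS-N in Col-0 at each length, where 6.09% of loci were at 21 nt and 8.23% at 22 nt. In dcl4-2 the authors' deposited table had 38 of 42 lower at 21 nt and 36 of 43 at 22 nt, where 4.19% and 6.8% of loci were. For dcl4-2 against Col-0 on MS-N, the authors' deposited table had 1 gene lower (LHCB1.2) and 3 higher (PSAH2, PSBO1 and PSBR) of 40 at 21 nt, where 4.87% of loci were lower and 7.3% higher. At 22 nt the authors' deposited table had 7 higher (LHCB4.1, LHCA3, PSAF, PSAH2, PSAO, PSBO1 and PSBR) and 0 lower of 41, where 9.29% were higher and 4.48% lower. PSAH2 was thus called there and not in the comparison of genotypes on MS-N given above, where its 22-nt log2 change was 1.57 (adjusted p = 0.0637, limma).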

How the data were processed

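Small RNA of 12 libraries (3 for each of 2 genotypes and 2 media) was available as a 21-nt and a 22-nt table of 32420 loci and a table of 14 feature classes. Per the submitters' processing notes, Bowtie 1.2.2, SAMtools 1.9 and the build TAIR10 were used, and the counting rule, strand and test are not given in the sources used here. In both gene tables the authors deposited a signal for every locus in each group, labelled TPM in the header and, from the values, the mean of 3 libraries' whole reads divided by a size factor. The authors' log2 ratios with a p-value and an adjusted p-value were deposited for 4 comparisons. The authors' class table holds rpm per library.

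Library values were recovered by splitting each deposited mean into the 1 combination of whole reads times library steps that gives it, for all 45 genes, leaving out 62 loci at 21 nt and 26 at 22 nt that hold 80.3 to 91.5% and 33.4 to 54.2% of the deposited sums. All SDs and tests rest on this. Recovered libraries carry no replicate number. Loci reaching a value of 1 in 3 or more of 12 libraries were compared with limma 3.58.1 (R 4.3.3) after log2(value + 1), using a mean-variance trend, 1 fit over the 4 groups and Benjamini-Hochberg adjustment over all loci. Log2 changes on this scale understate the change of low genes. Folds are ratios of group means, with a floor of 3 reads over a group at 0 and a 95% counting interval at 1 to 3 reads, for counting error only. The fit was tested on simulated data. Positions, transcripts and windows of 21 bases come from RefSeq (TAIR10.1). Alternatives were other pseudocounts (0.1 and 5), no filter, no trend, 2 other scalings, fewer groups in the fit and each library left out.

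Genes, lists and tests were chosen with earlier results of these data known. The naming rule asked for library values of every gene called in any comparison, which was nearly all of them. After values were seen, library values were kept for genes called for genotype or interaction, the gene with the most reads (or most per kb) of each role and genes that did not pass, and other genes are given as mean ± SD and in the plot of all libraries.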

Additional observations from a re-analysis of the deposited data

Results flagged for a closer look

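These results stood out because the change on MS-N differed between the genotypes by a test of the difference itself (the interaction in limma, SE after ±, adjusted over all loci). In each the log2 change was less negative in dcl4-2, and the cause was not tested. At 22 nt the difference in log2 change was 2.92 ± 0.56 (adjusted p = 0.00148) for LHCB4.1, 2.35 ± 0.54 (adjusted p = 0.0100) for PSAO and 2.15 ± 0.43 (adjusted p = 0.00261) for PSBO1, and these 3 passed whichever library was left out. Without a mean-variance trend in the fit, none of the 11 results given here passed. For LHCA3 it was 1.95 ± 0.46 (adjusted p = 0.0128), and the call ended when library 2 or 3 on MS or library 2 on MS-N of the wild type was left out (up to 0.0735). For PSBR it was 1.92 ± 0.46 (adjusted p = 0.0169), and the call ended when library 2 or 3 on MS or library 1 on MS-N of the wild type was left out (up to 0.0899).

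The other 22-nt calls were the least stable, each ending when any 1 of many libraries was left out. PSBW had 2.03 ± 0.55 (adjusted p = 0.0349), a call that ended without any 1 of 7 libraries (Col-0 MS libraries 1, 2 and 3, Col-0 MS-N libraries 2 and 3, dcl4-2 MS library 1, dcl4-2 MS-N library 2). PSBP-1 had 1.97 ± 0.54 (adjusted p = 0.0408), ended by any 1 of 8 (Col-0 MS libraries 1, 2 and 3, Col-0 MS-N libraries 1 and 3, dcl4-2 MS libraries 1 and 2, dcl4-2 MS-N library 1). LHCA4 had 1.97 ± 0.54 (adjusted p = 0.0398), ended by any 1 of 9 (Col-0 MS libraries 1, 2 and 3, Col-0 MS-N libraries 2 and 3, dcl4-2 MS libraries 1 and 2, dcl4-2 MS-N libraries 1 and 2). PSAH2 had 2.62 ± 0.75 (adjusted p = 0.0476), ended by every library but dcl4-2 MS-N library 3. The highest adjusted p without 1 library was 0.112 for PSBW, 0.138 for PSBP-1, 0.130 for LHCA4 and 0.123 for PSAH2.

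At 21 nt PSBO1 had 1.899 ± 0.46 (adjusted p = 0.0400), ended by any 1 of 6 libraries (Col-0 MS libraries 2 and 3, Col-0 MS-N libraries 1 and 2, dcl4-2 MS library 1, dcl4-2 MS-N library 2, up to 0.121). PSBR had 1.75 ± 0.44 (adjusted p = 0.0449), ended by any 1 of 8 (Col-0 MS libraries 2 and 3, Col-0 MS-N libraries 1, 2 and 3, dcl4-2 MS libraries 1 and 2, dcl4-2 MS-N library 3, up to 0.165).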

How the results depend on the processing

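No called change of a single gene changed sign under any alternative run, but the split of the genotype calls on MS-N at 21 nt, 6 higher and 3 lower, became 0 higher and 5 lower with microRNA scaling. The counts that fell on MS-N kept within 1.5 times: 40 to 42 in Col-0 at both lengths and, in dcl4-2, 36 to 39 at 21 nt and 36 to 40 at 22 nt, and with 1 library left out 41 to 42 and 41 to 43 in Col-0 and 38 to 39 and 36 to 38 in dcl4-2. Of single calls of genes in Col-0, 794 of 798 repeats passed at 21 nt and 792 of 798 at 22 nt, and in dcl4-2 734 of 741 and 710 of 722. Counts for genotype and interaction moved, and the cause was not tested. On MS, where 0 passed, 1 gene passed at 21 nt and 2 at 22 nt with a pseudocount of 5, 19 and 12 with microRNA scaling, 3 at 22 nt with only the 2 groups in the fit, and 0 to 1 at 22 nt with 1 library left out. On MS-N the 9 calls at 21 nt became 4 with a pseudocount of 0.1, 3 with 5, 0 without a trend, 5 with microRNA scaling, 2 with only the 2 groups and 3 to 9 with 1 library left out. The 9 at 22 nt became 5 with a pseudocount of 5, 1 without a trend, 4 with microRNA scaling, 4 with only the 2 groups and 4 to 11 with 1 library left out. The 2 interaction calls at 21 nt became 0 with a pseudocount of 0.1 or of 5, without the filter, without a trend and with trimmed-mean scaling, and 0 to 2 with 1 library left out. The 9 at 22 nt became 3 with a pseudocount of 0.1, 0 without a trend, 5 with trimmed-mean scaling and 3 to 9 with 1 library left out. The 22-nt share of the 45 genes from deposited means, 52.0% on MS and 41.1% on MS-N for the wild type and 48.2 and 49.5% for the mutant, was 50.9, 40.4, 49.8 and 49.4% from recovered reads. A planned count model (edgeR) on the recovered reads was not run. No paired analysis was possible because the recovered libraries carry no replicate number. On MS-N most of these genes had few reads per library, which limits what any comparison of genotypes there can show.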
